A study of Populus ussuriensis with 12 samples.

Results

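The 100 genes described here are those whose RNA level varied least between 12 root libraries of the poplar Populus ussuriensis. They were chosen on the measured values themselves. The level of a gene was expressed as CPM, its count as a share of the library total, with totals scaled by TMM, a method that assumes most genes to be alike between libraries. Of 39602 genes in the deposited files, 10454 had a mean of 20 to 300 CPM, and the 100 of these with the lowest coefficient of variation (CV, the SD divided by the mean) over the 12 libraries were taken. The choice used every library, so the spread of these genes and the differences between groups in them are given as descriptions, without a test. For a reading in libraries that had no part in the choice, sets were also chosen in 6 libraries and read in the 6 others.

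The libraries came from roots of plants aged 21 days and kept in vitro. The plants were wild type (WT) or overexpressed PuHSFA4a (OE), a class A heat shock factor, and each genotype was grown on control medium or under excess Zn. This gave 4 groups of 3 libraries: WT control and OE control on control medium, WT Zn and OE Zn under the metal. The protocol names 1 week on MS agar with sucrose and then 2 weeks with 1.2 mM zinc sulfate. It stands with every sample and was read as describing the Zn groups. The sources used here give neither the promoter of the transgene nor the number of transgenic lines. They also do not say whether replicate libraries were made from different plants, so p-values measure the spread between these libraries, which may be technical.

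Genes whose RNA stays at one level in most cells and conditions are often called housekeeping genes. Many of them serve tasks that every cell carries out, such as protein turnover, membrane traffic and RNA processing. Steady genes are used as references in quantitative PCR, where the level of a gene of interest is divided by theirs, and a reference is usually tested again for each tissue and treatment. Gene IDs come without names in the files. No function is therefore assigned to the genes below, and the root label could not be checked against marker genes. The form of the IDs, with the prefix Potri, is that used for Populus trichocarpa, another poplar. Lengths and positions may be those of that species, and their match to P. ussuriensis was not tested.

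Libraries held 15594001 to 21206585 counts in all. Between replicates the chi-square of the counts was 5.71 to 33.0 times its degrees of freedom, more than counting error gives, and none was taken for a copy of another. The files do not say which ID is HSFA4a. At Potri.011G071700.v3.0, taken for it from outside the files, the 6 OE libraries stood at 239 to 347 CPM and the WT Zn libraries at 32.5 to 33.1 CPM. The libraries labelled WT control 1, 2 and 3 stood at 129, 165 and 37.1 CPM, so the first and the second went partly against their label there. Over 106 genes at the start of chromosome 13, the median level in WT control 1, 2 and 3 and in WT Zn 3 lay at -0.16, -0.40, -0.84 and -0.86 (log2, against each gene's median library), where the other 8 libraries lay at 0.02 to 0.08. Counts of calls and CVs in sets chosen in 6 libraries are also given without these libraries; the other results below use all 12.

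The 100 genes had CVs from 2.25% to 3.81%, with a median of 3.47%. Over all 10454 genes of the range the median CV was 10.6% and the quartiles were 7.40% and 16.7%. The limit did not fall in a gap. The last genes inside it were Potri.004G039000.v3.0 at 3.775%, Potri.005G159600.v3.0 at 3.805% and Potri.015G043200.v3.0 at 3.808%. The first outside were Potri.005G048900.v3.0 at 3.819%, Potri.018G009100.v3.0 at 3.8280% and Potri.002G201400.v3.0 at 3.8283%. Within the 100 genes, the highest of the 12 libraries exceeded the lowest by a ratio of 1.07 to 1.16, with a median of 1.12, where the median over the range was 1.41.

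**Figure D1:**
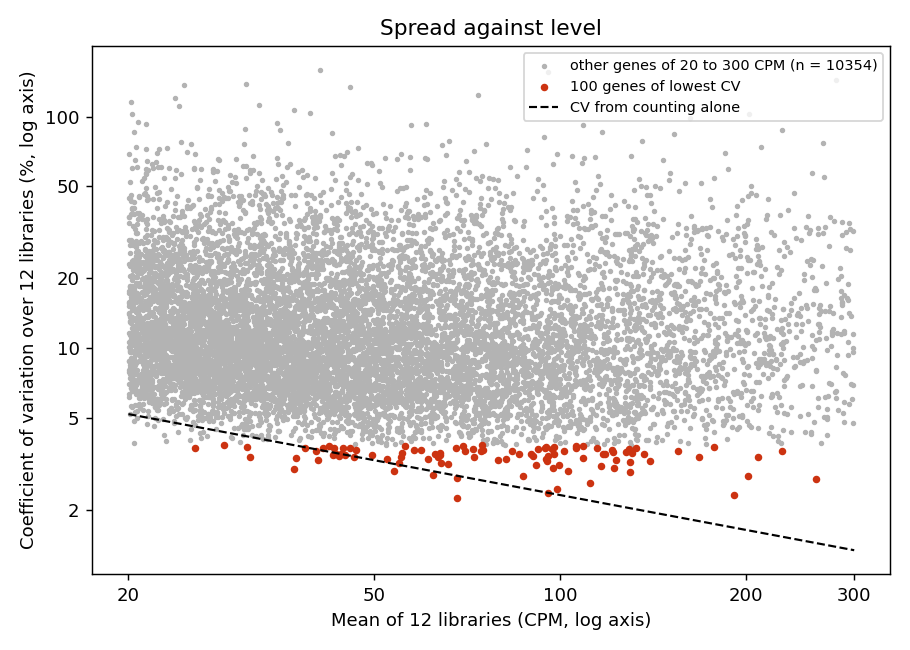
Mean level (CPM, log axis) against CV over 12 libraries (%, log axis) for 10454 genes of 20 to 300 CPM. Red points are the 100 genes of lowest CV, from 2.25% to 3.81%; the dashed line is the CV that counting alone would give, which 20 of the 100 genes lie on or under.

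The gene with the lowest CV was Potri.012G046300.v3.0 (chromosome 12, 4259942 to 4265473, plus strand; coordinates as in the files; the sources name no genome build). It stood at 68.2, 69.1 and 69.9 CPM in WT control and at 65.5, 68.4 and 68.8 CPM in OE control. On Zn it stood at 68.1, 67.2 and 70.7 CPM in WT and at 65.9, 67.2 and 67.4 CPM in OE. The 4 groups overlapped except that the highest OE Zn library lay below the 3 WT control libraries, and the mean over all libraries was 68.0 CPM ± 1.53 (SD, n = 12).

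Potri.007G028500.v3.0 (chromosome 7, 2133227 to 2137769, minus strand) came second, at a higher level. It stood at 193.6, 185.4 and 188.1 CPM in WT control, at 189.6, 197.6 and 185.9 CPM in OE control, at 186.5, 193.3 and 196.1 CPM in WT Zn and at 192.2, 196.4 and 195.5 CPM in OE Zn. All 4 groups overlapped, and its ratio of highest to lowest library, 1.07, was the smallest of the 10454 genes. Potri.006G195600.v3.0 (chromosome 6, 21159485 to 21168848, minus strand) was next. It stood at 92.0, 96.7 and 93.7 CPM in WT control, at 94.5, 97.5 and 94.4 CPM in OE control, at 92.8, 95.2 and 97.2 CPM in WT Zn and at 98.7, 96.1 and 99.0 CPM in OE Zn. Its OE Zn libraries included the 2 highest of the 12.

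Potri.006G149500.v3.0 (chromosome 6, 12968648 to 12982125) had a CV of 2.46%. It stood at 99.1, 96.6 and 101.2 CPM in WT control, at 99.4, 104.6 and 100.1 CPM in OE control, at 98.0, 95.3 and 98.3 CPM in WT Zn and at 97.8, 96.6 and 99.0 CPM in OE Zn. In OE all 3 control libraries lay above all 3 Zn libraries, by a small margin. Potri.017G129900.v3.0 (chromosome 17, 14070472 to 14075422) had a CV of 2.62%. Its group means were close to each other, at 112.4 CPM ± 3.96 in WT control, 112.0 CPM ± 2.09 in OE control, 111.5 CPM ± 2.48 in WT Zn and 111.1 CPM ± 4.44 in OE Zn (SD, n = 3).

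The other genes among the 10 of lowest CV were Potri.005G005400.v3.0 (2.73%), Potri.002G105700.v3.0 (2.76%), Potri.010G245100.v3.0 (2.79%), Potri.008G047300.v3.0 (2.80%) and Potri.001G371700.v3.0 (2.84%). Over these 10 genes the libraries lay at 93.5% to 106.6% of the gene's mean. Each of the 10 was chosen again whichever of the 12 libraries was left out. Such an omission can raise a CV only a little, and these CVs lay well under the limit. The repeat therefore follows largely from their rank and is not a check of their steadiness.

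**Figure D2:**
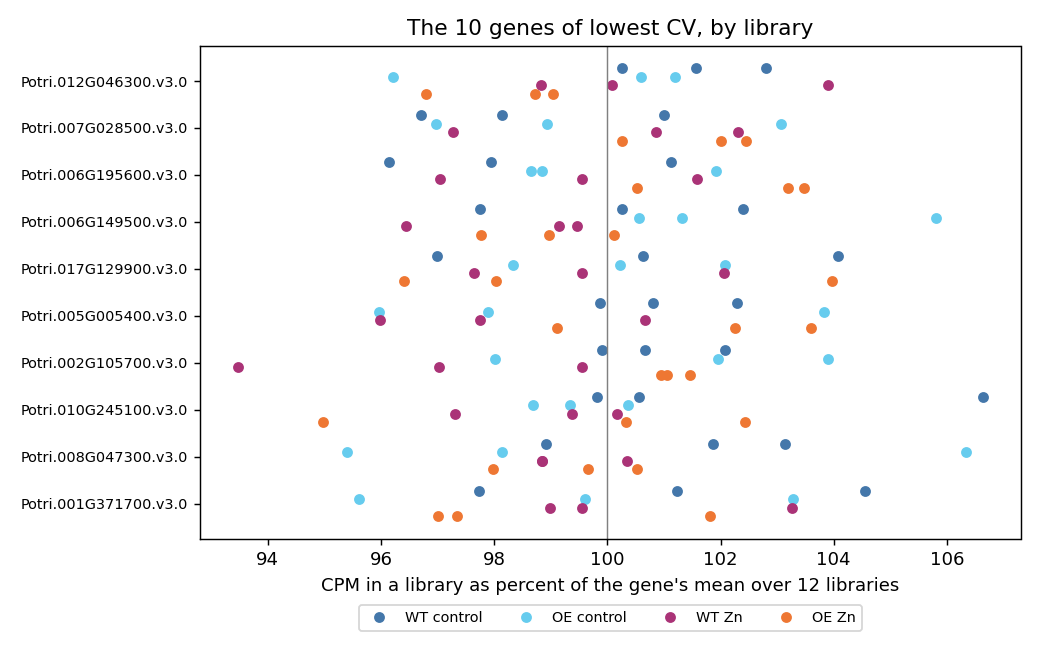
Level in each library as a percent of the gene's mean over 12 libraries, for the 10 genes of lowest CV. Each point is 1 library, coloured by group; in 5 of the 10 genes every group has libraries on both sides of 100%, and Potri.012G046300.v3.0 at the top has a CV of 2.25%.

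The 100 genes were not spread evenly over the range of levels. Only 2 of them lay in the quartile of lowest mean level, up to 29.6 CPM, against 15, 31 and 52 in the following quartiles, although the median CV of all genes was close in the 4 quartiles (11.5%, 10.5%, 9.98% and 10.2%). The 2 in the lowest quartile were Potri.015G144900.v3.0 at 25.6 CPM and Potri.005G159600.v3.0 at 28.5 CPM, followed by Potri.005G149800.v3.0 at 31.1 CPM. The highest levels were 260.6 CPM for Potri.005G005400.v3.0, 229.5 CPM for Potri.008G051700.v3.0, 209.6 CPM for Potri.003G038700.v3.0, 201.7 CPM for Potri.010G245100.v3.0 and 191.7 CPM for Potri.007G028500.v3.0. Counting alone gives an expected CV that rises as the level falls. For a gene at the mean of Potri.015G144900.v3.0 it gave a CV of 4.58%, above the CV of 3.68% that was measured for it. Over the 100 genes the CV was 0.792 to 2.35 times the counting value, with a median of 1.30, and 20 genes lay at or under it. In the range as a whole the median was 3.20 times, and 37 of 10454 genes lay at or under it. The counting value is an expectation, so the CV of 12 libraries can fall below it, and the choice of the lowest CVs favours such genes. It covers counting error only, and the counts were the authors' estimates.

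The libraries lay close to each other in the mean level of the 100 genes. The geometric mean of the 100 genes ran from 77.9 CPM in WT control 2 to 79.1 CPM in OE control 2, and the genes held 0.857% (WT Zn 3) to 0.899% (WT control 1) of all counts. The extremes were less even. OE control 2 was the highest library for 16 of the genes and WT control 2 for 2. OE Zn 2 was the lowest for 17 and OE Zn 1 for 4. Scaling the libraries on the 100 genes in place of TMM moved the library sizes by factors of 0.992 to 1.01. The genes were chosen on TMM values, so this closeness is not an independent check of either scaling.

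Differences between groups took a median of 31.0% of the sum of squares of a gene over the 12 libraries, from 1.73% to 78.2%, where the 3 degrees of freedom between groups are 27.3% of the 11 in all. Over the range the median was 56.7%. Potri.010G115700.v3.0 had the lowest share, with group means of 37.2 CPM ± 1.36 in WT control, 36.8 CPM ± 1.505 in OE control, 37.2 CPM ± 0.566 in WT Zn and 37.0 CPM ± 1.52 in OE Zn (SD, n = 3). The highest share was that of Potri.004G203800.v3.0, with 116.8 CPM ± 3.21, 122.3 CPM ± 3.54, 127.0 CPM ± 0.531 and 120.1 CPM ± 0.274 in the same order. In the latter gene all 3 WT Zn libraries lay above the other 9. These 2 genes were picked after their values were seen.

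For excess Zn against control in WT, edgeR called 29.9% of 25871 genes (7730, quasi-likelihood adjusted p under 0.05) and 0 of the 100 genes. At an unadjusted p under 0.05 there was 1 of the 100, against 10705 of all 25871. DESeq2 and limma-voom, which called 31.9% and 29.8% of all genes, also called 0 of the 100. In OE, edgeR called 17.1% of all genes (4413) and again 0 of the 100. DESeq2 and limma-voom also called 0 of the 100 (20.1% and 16.3% of all genes). At an unadjusted p under 0.05 there were 0 of the 100, against 8172 of all 25871. Since the choice used these same differences, nothing is read from the absence of calls or the scarcity of small p-values. The fitted log2 fold changes of the 100 genes on Zn ran from -0.11 to 0.12 in WT and from -0.11 to 0.11 in OE, with a median size of 0.034 and 0.031. Over the range the median size was 0.20 in WT and 0.15 in OE. The gene with the unadjusted p under 0.05 was Potri.004G203800.v3.0, whose Zn change on the log2 scale was 0.12 ± 0.05 (SE) in WT and -0.03 ± 0.05 in OE (adjusted p = 0.0950 and 0.768 by edgeR). Of the 100 genes, 59 had the same sign of Zn change in both genotypes, against 82.2% of the range, and the Pearson r between the 2 changes across genes was 0.20 against 0.88. The 2 contrasts share no library, but the choice kept genes with small changes in both.

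Between genotypes edgeR called 0.0% of all genes in either medium, so 0 calls among the 100 genes say nothing about them. The uncalled genes include the locus taken for HSFA4a, at 239 to 267 CPM in OE Zn and 32.5 to 33.1 CPM in WT Zn. The lack of calls is therefore not read as the lack of a genotype effect. On Zn the fit of the 2 groups alone called 0.016% of all genes, and the omission of WT Zn 1 gave 0.073%. On control medium the omission of WT control 3 gave 0.004%. Each of these settings called 0 of the 100. Of all 25871 genes, 2296 on control medium and 1845 on Zn had an unadjusted p under 0.05, and among the 100 genes 0 in each. The choice used these differences too, so nothing is read from that. DESeq2 called 0.313% of all genes on control medium and 0.247% on Zn, limma-voom 0.0% on both, and each called 0 of the 100. Their fitted log2 fold changes for OE against WT ran from -0.09 to 0.10 on control medium and from -0.08 to 0.09 on Zn. The interaction of genotype and Zn was likewise called for 0.0% of all genes.

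**Figure D3:**
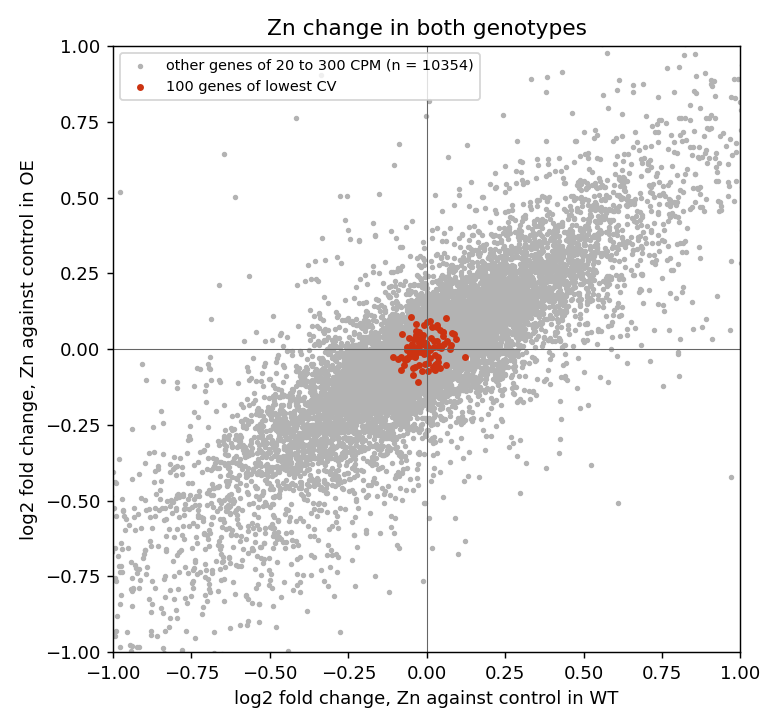
Fitted log2 fold change on Zn in WT (horizontal) and in OE (vertical) for genes of 20 to 300 CPM, grey, and the 100 genes of lowest CV, red; 462 genes lie outside the limits of 1. The red points fill a spot between -0.11 and 0.12 at the centre of the cloud, as the choice requires.

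To see how far a low spread carried over to libraries that had no part in the choice, the same rule was applied to the 6 WT libraries and the 100 genes it gave were read in the 6 OE libraries. Their median CV was 2.55% in WT and 5.34% in OE (quartiles 4.15% and 7.34%), where the median over the 10442 genes of the range was 11.2% in WT and 9.42% in OE. In OE, 91 of the 100 lay below the median of the range. The reverse gave the same order: genes chosen in OE had a median CV of 2.20% there and 6.41% in WT, against 11.2% for the range, and 93 lay below its median. The median gene of the WT choice lay at percentile 16.1 of CV in OE, and that of the OE choice at percentile 17.2 in WT. Of the 100 genes chosen in WT, 4 (4% of either list) were also among the 100 chosen in OE: Potri.012G046300.v3.0, Potri.007G028500.v3.0, Potri.006G195600.v3.0 and Potri.002G214400.v3.0. Each choice took 100 genes, from 10442 in WT and 10436 in OE. The 4 genes are named after their values were seen. The first 3 are the 3 genes of lowest CV over all 12 libraries, a rank that low CVs in both choices favour. The fourth, Potri.002G214400.v3.0, stood at 42.6 CPM ± 1.16 in WT control, 45.6 CPM ± 1.49 in OE control, 43.6 CPM ± 0.962 in WT Zn and 44.8 CPM ± 0.553 in OE Zn (SD, n = 3), with the 3 OE control libraries above the 3 WT control libraries.

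The set chosen in WT was also read for the response to Zn in OE. The main fit takes its spread from all 4 groups, so that spread includes the WT libraries of the choice. The fit of the 2 OE groups alone called 1 of the 100, against 19.3% of the range. For Zn in OE, edgeR called 2 of these 100 genes (adjusted p under 0.05), and 8 had an unadjusted p under 0.05. In the range of 20 to 300 CPM in WT, 20.4% of the genes were called and 36.3% had an unadjusted p under 0.05. Over 21 alternatives of tool, scaling, filter and omitted libraries the count was 0 to 5, against 10.3% to 24.0% of the range. DESeq2, on median-ratio scaling, gave the 5, and edgeR on that scaling gave 2. Here and below, genes were chosen anew where an alternative changed the scaling or left out libraries of the choice. The counts over alternatives are therefore not those of 1 fixed list. Leaving out OE control 2 gave 0. Leaving out OE control 3, WT Zn 1 or OE Zn 1 gave 1. The count was 3 without WT control 3 or OE Zn 2, and 4 without WT control 1, WT Zn 3 or OE Zn 3 or without WT control 1 and 2 together. The 2 genes are named after their values were seen. Potri.001G359700.v3.0 (chromosome 1, 37002800 to 37009653, minus strand) stood at 83.8, 79.7 and 71.7 CPM in OE control and at 93.6, 87.3 and 93.1 CPM in OE Zn, without overlap, which is a rise of 0.22 ± 0.06 (SE) on the log2 scale (adjusted p = 0.0360 by edgeR). That call was lost in 7 alternatives, among them the fit of the 2 OE groups alone and the omission of OE control 2, OE control 3, WT Zn 2, OE Zn 1 or OE Zn 3 or of WT control 1 and 2 together, with values of 0.16 to 0.23. Potri.014G175200.v3.0 (chromosome 14, 14246151 to 14251256, plus strand) stood at 127.3, 122.5 and 122.1 CPM in OE control and at 145.4, 142.8 and 146.3 CPM in OE Zn, again without overlap, a rise of 0.22 ± 0.05 (adjusted p = 0.0113), and lost its call without OE control 2 (0.21). In WT the Zn change of the pair was 0.05 and 0.06 on the same scale, and the interaction did not pass for either (edgeR adjusted p = 0.786 and 0.779).

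In the other direction, 13 of the 100 genes chosen in OE were called for Zn in WT, against 37.1% of the range. That count was 5 in the fit of the 2 WT groups alone (31.7% of the range) and 7 without WT control 1 and 2 (24.2%). It was 8 without WT control 3 and WT Zn 3 (26.1%), 8 with no filter on low counts (34.7%), and 6 to 8 without WT control 1, OE control 1, OE control 3, WT Zn 1 or WT Zn 2. In each of 21 alternatives the share called in the chosen set was below that of the range.

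The rule was next applied to the 6 control-medium libraries, WT and OE together, and the 100 genes were read in the 6 Zn libraries. Their median CV was 2.06% in the control-medium libraries, where the range had 7.89%, and 5.31% in the Zn libraries, against 7.59% for the range, and 87 lay below the median of the range. Yet edgeR called 36 of them for Zn in WT (25 higher and 11 lower), where 37.1% of the range was called, and 21 for Zn in OE (11 higher and 10 lower), against 20.4%. Over all genes tested, the calls were 3970 higher and 3760 lower in WT, and 2203 and 2210 in OE. Nothing is read from the split of the 36 or of the 21. Both contrasts share the control libraries with the choice, and the spread of the main fit comes from all 4 groups. The WT share was below that of the range in each of 21 alternatives, with 11 to 37 genes against 24.3% to 39.1%. The count was 11 without WT control 1 and 2 (24.3% of the range), 19 without WT control 3 and WT Zn 3 (26.0%), 19 in the fit of the 2 WT groups alone (31.7%) and 21 without WT Zn 2 (28.9%). In OE it was 11 in the fit of the 2 OE groups alone (19.2%), 6 without OE control 2 or OE Zn 2, 7 without OE Zn 1, 8 without OE control 3 and 13 without WT Zn 2, where the share of the range was 10.2%, 12.9%, 12.5%, 12.9% and 17.9%. The OE share was below that of the range in 20 of the 21 alternatives and above it in 1, scaling on the 100 members, with 23 genes against 20.4%. In the main fit it was above, with 21 against 20.4%. The alternatives reuse the same libraries and the main shares lay near those of the range, so no direction is read from the WT or OE tally.

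Of the genes chosen on control medium, 16 were called for Zn in both genotypes, against 17.2% of the range. All 16 had the same sign in both, as did all 1795 such genes of the range. The 2 with the largest rise and the 2 with the largest fall in WT are named after their values were seen. Potri.005G067300.v3.0 (chromosome 5, 4850036 to 4854431) stood at 37.1 to 39.5 CPM in the 6 control libraries and at 43.9 to 50.3 CPM in the 6 Zn libraries, a rise on the log2 scale of 0.34 ± 0.07 (SE) in WT and 0.29 ± 0.07 in OE (adjusted p = 0.00292 and 0.0129 by edgeR). Potri.003G109700.v3.0 (chromosome 3, 13330480 to 13336942) stood at 33.9 to 35.7 CPM on control medium and at 38.2 to 45.5 CPM on Zn, with 0.31 in WT and 0.30 in OE (edgeR adjusted p = 0.00606 and 0.0129). Neither gene's libraries overlapped between media.

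Potri.008G049500.v3.0 (chromosome 8, 2912618 to 2921512) stood at 41.2 to 44.0 CPM on control medium and at 26.8 to 31.5 CPM on Zn. The change on Zn was -0.61 ± 0.08 (log2, SE) in WT and -0.53 ± 0.08 in OE (adjusted p = 0.000220 and 0.00119 by edgeR). Potri.015G060000.v3.0 (chromosome 15, 8236847 to 8240724) had a CV of 1.25% on control medium, at 173.8 to 179.6 CPM, and stood at 109.8 to 148.4 CPM on Zn, with -0.45 in WT and -0.36 in OE (edgeR adjusted p = 0.00314 and 0.0172). Its CV over the Zn libraries was 10.3%, and the lowest of them was WT Zn 3. By CV over all 12 libraries these 4 genes ranked 6058, 6021, 8654 and 7504 of the 10454. The OE calls of Potri.005G067300.v3.0, Potri.003G109700.v3.0 and Potri.015G060000.v3.0 were lost without OE control 2 or without OE Zn 2, and the first also without OE Zn 1. The WT call of Potri.003G109700.v3.0 was lost without WT control 1 and 2 together.

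The rule applied to the 6 Zn libraries gave a like picture. The 100 genes had a median CV of 1.83% in the Zn libraries, where the range had 7.55%, and of 5.56% in the control-medium libraries, against 7.86% for the range. Of these genes, 38 were called for Zn in WT, against 36.8% of the range, and 18 in OE, against 20%. Over 21 alternatives the WT share was below that of the range in 14 and above it in 7, and the OE share below in 20 and above in 1. Here too the alternatives reuse the same libraries, and no direction is read from these tallies. In WT the count was 24 without WT control 1 and 2 (23.9% of the range), 18 without WT control 3 and WT Zn 3 (25.8%) and 23 in the fit of the 2 WT groups alone (31.3%). It was 22 without WT control 3, 25 without WT Zn 1 and 24 without WT Zn 2 (29.0%, 30.9% and 28.6%). In OE it was 9 without OE control 2 or OE Zn 2 and 10 without OE control 3 (10.02%, 12.6% and 12.8%). Each choice took 100 genes, from 10378 on Zn and 10419 on control medium. Of the genes chosen on Zn, 3 were also chosen on control medium: Potri.007G086900.v3.0, Potri.010G176500.v3.0 and Potri.014G112400.v3.0, named after their values were seen.

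All 3 stood higher on Zn. Potri.014G112400.v3.0 (chromosome 14, 8805321 to 8812029), with a CV of 2.01% on control medium and 2.07% on Zn, stood at 217.5 to 230.0 CPM on control medium and at 240.6 to 255.7 CPM on Zn, without overlap. Its change on Zn was 0.16 ± 0.05 (log2, SE) in WT and 0.13 ± 0.05 in OE (adjusted p = 0.0435 and 0.126 by edgeR), and it ranked 929 by CV over the 12 libraries. The WT call was lost in 16 of 21 alternatives, among them the omission of each library other than OE Zn 3, with values of 0.14 to 0.17, and DESeq2 also called the change in OE (0.13). Potri.010G176500.v3.0 and Potri.007G086900.v3.0 had log2 fold changes of 0.10 and 0.06 in WT and 0.10 in OE for both, and passed in neither. Of the 3, Potri.007G086900.v3.0 belongs to the 100 genes of lowest CV over all libraries, with 124.5 CPM ± 1.21 in WT control, 124.1 CPM ± 4.11 in OE control, 130.01 CPM ± 1.48 in WT Zn and 133.2 CPM ± 2.52 in OE Zn (SD, n = 3).

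**Figure D4:**
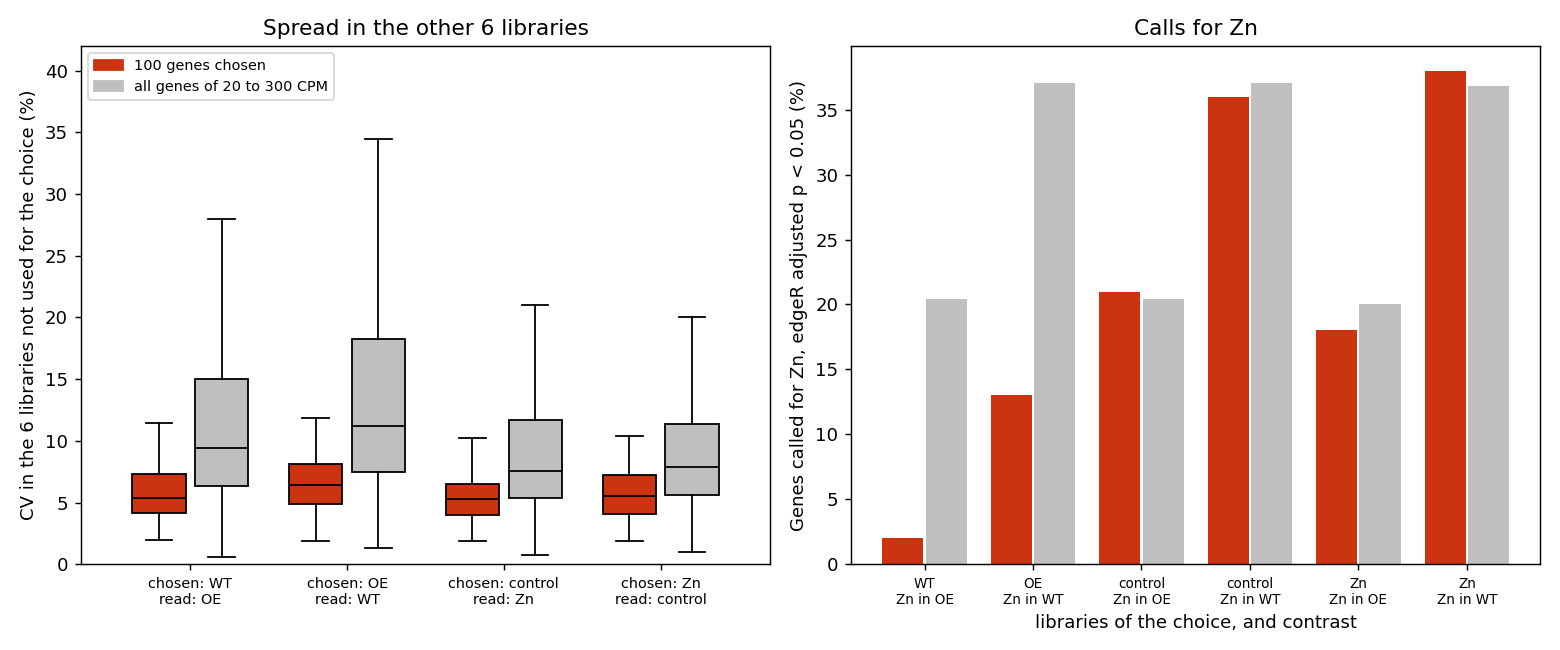
Left, CV (%) in the 6 libraries not used for the choice, for the 100 genes chosen (red) and all genes of 20 to 300 CPM (grey); boxes are quartiles with the median, whiskers reach to 1.5 box lengths and points beyond are not drawn. Right, percent of genes called for Zn: 2 of 100 genes chosen in WT against 20.4% of the range for Zn in OE, and 36 of 100 genes chosen on control medium against 37.1% for Zn in WT.

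Length, position and strand had no part in the rule and were compared as descriptions. The listed length of the 100 genes had a median of 2443 bases (1031 to 6173), against 2158.5 bases over the range. No member was shorter than 1000 bases, where 5.94% of the range was. Length and level are linked with counting error, so lengths were also read by quartile of mean level. In the highest quartile the median was 2528 bases for the 52 genes and 2220 bases for the range, in the one next to it 2444 and 2237, and in the one after that 2378 and 2139. In the lowest quartile, with 2 of the genes, it was 1574 and 2044.5 bases. The span from start to end on the chromosome had a median of 6284 bases, against 4634. Per kilobase of listed length, the level of the 100 genes had a median of 28.7 CPM per kb, against 21.20; the level is part of the rule, and the members lay mostly in the higher quartiles of level. Levels per kb ran from 10.2 to 176, the latter for Potri.008G051700.v3.0.

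**Figure D5:**
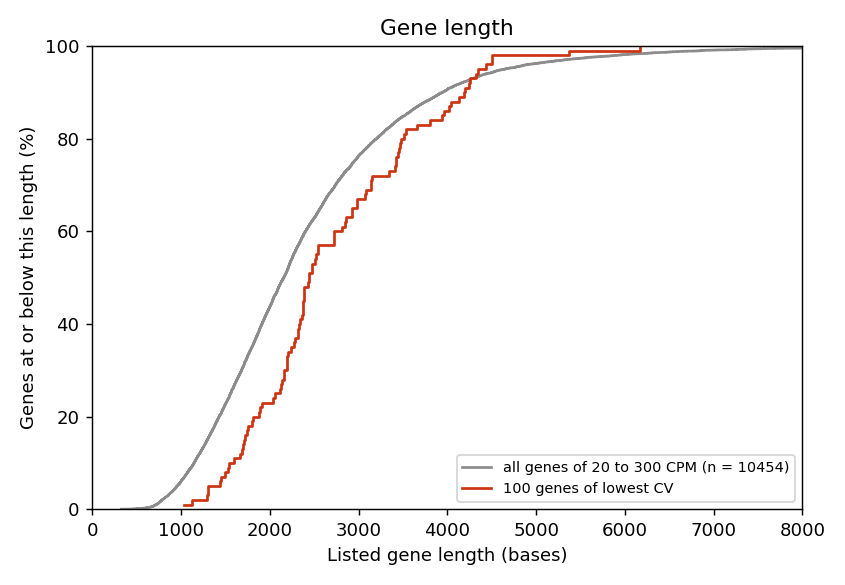
Percent of genes at or below a listed length (bases) for the 100 genes of lowest CV (red) and all 10454 genes of 20 to 300 CPM (grey). The red line lies to the right of the grey one over most lengths and crosses it among the long genes, with medians of 2443 and 2158.5 bases.

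The genes lay on all 19 chromosomes and on no unplaced scaffold. Only 87 of the 10454 genes of the range lie on scaffolds, too few for that absence to be read. They were 0.957% of the genes of the range, and by chromosome from 0.308% (1 of 325 genes on chromosome 11) to 1.75% (10 of 570 on chromosome 4). Chromosomes 10, 15 and 6 followed at 1.54%, 1.47% and 1.42%, and chromosome 19 had the next lowest share, at 0.429%. Of the 100 genes, 51 were on the plus strand, against 49.7% of the range. The span of 14 overlapped that of another gene, against 12.5% of the range. Reads of those 14 may be shared with a neighbour. In 1 pair both genes were next to each other among the genes of the range. The 194 other genes of the range that lay next to a member had a median CV of 9.82%, close to the 10.6% of the range. On chromosome 13 the first member, Potri.013G037700.v3.0, starts at 2567447; it is named after its values were seen. The stretch before it holds no member by construction, so a lowest CV above the limit is fixed by the choice. The 106 genes of the range before that start had a median CV of 24.4% and a lowest CV of 7.85%, against a median of 10.7% on the rest of that chromosome. These are the 106 genes whose levels were low in WT control 3 and WT Zn 3, and less so in WT control 1 and 2; the part of those libraries in the high CVs there was not tested.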

How the data were processed

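Per the file headers, each deposited table gives every gene its length, locus and strand with 3 measures. The submitters' processing notes name TopHat2 2.1.1 and HTSeq 0.6.0, with no genome build or strand setting. The deposited counts are whole, but in 32.7% to 34.0% of the genes with counts they lie over 0.5 above what the normalized column implies, so they were treated as the authors' estimated counts. The authors' normalized signal (the count times about 1 factor per library) and the authors' FPKM were alternatives for the choice of genes. Groups follow the titles; replicate numbers follow the order of deposit.

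R 4.3.3 and edgeR 4.0.16 were used: filterByExpr (25871 genes), TMM, 4 group means over 12 libraries, robust quasi-likelihood F-test, Benjamini-Hochberg adjustment over all genes and a threshold of 0.05. SEs were derived from the F statistic. Alternatives were DESeq2 1.42.0, limma 3.58.1, other scalings, no filter, fits of 2 groups and omission of libraries. Fit and choice were tried on simulated data, where planted stable genes had counting noise only and other genes a set minimum of further spread. The measured CVs have no such gap, so that trial does not test the choice near its limit.

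Members, lists and tests were chosen with earlier results of these data known. Named are the 10 genes of lowest CV, the 5 highest and 3 lowest in level and the 3 on each side of the limit; other names say that they were picked after their values were seen. With no reference table, 26 word lists of gene families, cell type markers, 8 promoter motifs and paralogs were not analysed here.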

Additional observations from a re-analysis of the deposited data

How the results depend on the processing

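Of the 100 genes, 66 to 83 were chosen again when 1 library was left out (66 without WT Zn 3), and 43 in all 12 such choices. Median-ratio scaling, log2 values, the authors' normalized column and other CPM limits shared 95 to 99, upper-quartile scaling and FPKM 72 each, library totals alone 54 and the CV without counting variance 42. Choices in the WT, OE, control or Zn libraries shared 32, 22, 12 and 17. Without WT control 1 and 2, or without WT control 3 and WT Zn 3 (both added after seeing the data, as were the choices in OE, control or Zn libraries read elsewhere), 61 and 46 were shared. The median CV of the 100 genes was 3.39% to 3.56% with 1 library left out, 3.73% with library totals alone and 3.41% without WT control 3 and WT Zn 3.

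Genes chosen in WT had a median CV in OE of 5.16% to 5.95% with 1 library left out and of 6.15% under either omission of 2, against 8.97% to 9.59% for the range under any of these settings. Their calls for Zn in OE numbered 0 to 4 with 1 library left out, 5 with DESeq2, 1 in the 2-group fit, 1 with upper-quartile scaling and 4 without WT control 1 and 2. Genes chosen in OE had a median CV in WT of 5.84% to 7.08%, or 5.37% without WT control 3 and WT Zn 3, and 6 to 16 calls, with 5 in the 2-group fit, 8 with no filter, 7 without WT control 1 and 2 and 8 without WT control 3 and WT Zn 3. For the choice on control medium the median CV on Zn was 4.71% to 5.98%, 4.96% with upper-quartile scaling, 6.02% without WT control 1 and 2 and 4.71% without WT control 3 and WT Zn 3. Its calls in WT were 21 to 35, with 19, 11 and 19 in the 2-group fit and those 2 omissions, and in OE 6 to 21, with 11 in the 2-group fit. For the choice on Zn the median CV on control medium was 4.94% to 6.40%, the calls in WT 22 to 40, with 23, 24 and 18 in the same 3 settings, and in OE 9 to 19.

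Over all genes, calls for Zn in WT were 6028 to 7857 with 1 library left out and 4866 without WT control 1 and 2. In OE they were 2200 to 4765; they were 2200 without OE control 2, 2689 without OE Zn 1, 2741 without OE control 3 and 2742 without OE Zn 2. No Zn change of the 7 named genes with a Zn call changed sign in these alternatives; 32 calls were lost, 16 of them for Potri.014G112400.v3.0 in WT, as given beside the genes. The cause of these differences was not tested. No paired analysis was possible because the labels give no replicate numbers shared between groups.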
